A study of Drosophila melanogaster with 2 samples.

Results

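Phototransduction in Drosophila photoreceptors was examined through 10 genes, ninaE, ninaA, norpA, trp, trpl, inaD, inaC, ninaC, Arr1 and Arr2, which were chosen by name out of 13945 protein-coding genes, with earlier results of these data known. All 10 were found in the Ensembl BDGP6 annotation. Of these, 3 lie on arm 2L, 3 on 2R, 2 on 3R, 1 on 3L and 1 on X. The data were peak lists from chromatin immunoprecipitation and sequencing (ChIP-seq) of the protein CG33017 in whole adult males, with 2 biological replicates of 1 group. The animals were of strain CG33017, a transgenic line that stably carries CG33017 with GFP at its C-terminus, and chromatin was precipitated through GFP. Their age is given as unknown, and the promoter that drives the fusion is not given in the sources used here. With 1 group there was no comparison between conditions, and flies without the fusion were not analysed here. Both replicates carry the same donor record, so they share 1 transgenic line.

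Light is detected in the fly eye by rhodopsin, an opsin carrying a retinal-derived chromophore in the folded membrane of the rhabdomere. Activated rhodopsin drives a Gq protein, which switches on phospholipase C, and hydrolysis of a membrane phosphoinositide is followed by opening of TRP and TRPL cation channels. A scaffold protein holds the phospholipase, the TRP channel and a protein kinase C together, while arrestins and calcium-dependent kinases end the response. These genes are known for strong expression in photoreceptors, which are a small part of a whole fly. Signal from photoreceptors and signal from all other cells cannot be told apart in these lists.

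Each list gives peaks with a summit and a signal value set by the authors, and rank 1 is the highest signal within a list. The pooled list and each replicate list held 30000 peaks. The list that passed the irreproducible discovery rate (IDR) held 4867, which were the 4867 highest peaks of the pooled list, with signals from 105.1 to 3404. A summit was assigned to a gene when it lay in the gene body or within 2 kb of it, and called promoter-proximal when it lay within 500 bp of a transcription start site (TSS). Negative offsets are upstream of the TSS. Read depth is unknown from peak lists, so a missing peak means no peak in that list and not absence of binding.

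None of the 10 phototransduction genes had a promoter-proximal IDR summit (0 of 10), where 23.8% of all protein-coding genes had one. Within 2 kb of the gene, 3 of 10 had an IDR summit, namely ninaE, norpA and inaD, against 39.1% of protein-coding genes. The strong site lay inside norpA, the phospholipase C gene. The other sites of the IDR list lay upstream of ninaE and beside inaD, and in both of these cases the TSS nearest to the summit belonged to a neighbouring gene. When as many of the highest peaks were taken from each replicate alone, 0 ± 0 members were promoter-proximal and 2.5 ± 0.707 had a summit within 2 kb (SD, n = 2). The gene that replicate 2 lacked was ninaE, whose peak ranked 4921 there, just past 4867. Among the 9719 protein-coding genes within the length range of the 9 members other than norpA (969 to 11822 bp), 25.7% had a promoter-proximal IDR summit.

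**Figure D1:**
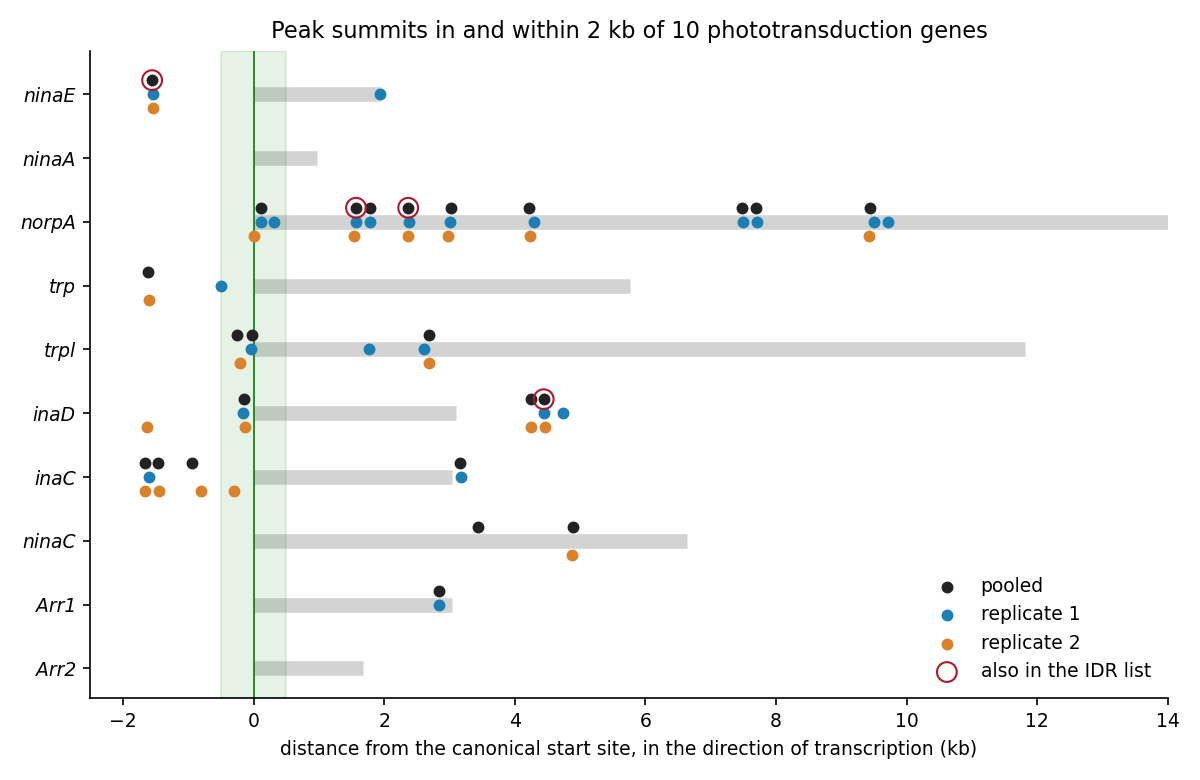
Peak summits in and within 2 kb of the 10 genes, plotted by distance in kb from the canonical start site in the direction of transcription, with points for the pooled, replicate 1 and replicate 2 lists and rings for peaks also in the IDR list. Grey bars are gene bodies (norpA is cut off at 14 kb) and the green band covers 500 bp each side of the canonical start site. The band holds no ring, and the ninaA and Arr2 rows are empty.

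In the full lists, which reach weaker peaks, promoter-proximal summits were present at 3 of 10 genes in the pooled list (norpA, trpl and inaD; 61.3% of protein-coding genes), at the same number in replicate 1 (norpA, trpl and inaD; 61.0%) and at 4 of 10 in replicate 2 (these and inaC; 59.2%). Summits anywhere within 2 kb were found at 8 of 10 genes in the pooled list (80.3% of protein-coding genes), 7 of 10 in replicate 1 (78.5%) and 7 of 10 in replicate 2 (80.5%). The counts for whole gene neighbourhoods thus lay near the background, while the promoter counts lay under it in all 4 lists. With 10 genes no test of this difference was run. The 4 lists are not independent, since the IDR list is the top of the pooled list, which comes from the same 2 replicates.

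The rhodopsin gene of the outer photoreceptors, ninaE (FBgn0002940, 3R, 19886255 to 19888206, minus strand), had a single pooled summit. It lay 1554 bp upstream of the only ninaE TSS in intergenic sequence (3R, 19889558 to 19889961), with a signal of 118.4 and rank 4118 of 30000. This peak was in the IDR list, close to its lower end. The replicates placed the summit at -1540 bp (rank 3187, signal 74.85) and -1546 bp (rank 4921, signal 54.93). With the pooled position, which comes from the same 2 replicates, the 3 positions spanned 14 bp, and all were interval midpoints. The TSS nearest to this summit was that of CG4733, for which it lay at -929 bp. Replicate 1 also held a weak peak in the ninaE 3' UTR (rank 24124), which no peak of replicate 2 overlapped. The window of 101 bp around the pooled summit is shown because it is the only reproducible ninaE site, beside the 150 bp just upstream of the TSS, where no list had a peak. Both are on the strand of ninaE, from the dm6-matching Release 6 genome. In the first, capitals mark runs of at least 6 A or T, and in the second the TATAAA word.
ninaE summit window, chr3R:19889710-19889810: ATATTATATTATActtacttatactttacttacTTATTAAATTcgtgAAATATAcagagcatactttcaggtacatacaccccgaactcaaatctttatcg
ninaE upstream of the TSS, chr3R:19888207-19888356: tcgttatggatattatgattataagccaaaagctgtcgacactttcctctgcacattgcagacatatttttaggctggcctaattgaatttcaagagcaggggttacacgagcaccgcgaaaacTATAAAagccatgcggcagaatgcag

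The summit window had a GC content of 27.7% and held 30 bases in such A or T runs, where the median IDR summit window held 22. The upstream stretch had a GC content of 42.7%.

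The partner of ninaE in rhodopsin maturation, ninaA (FBgn0002936, 2L, 877302 to 878270), encodes a cyclophilin chaperone needed for rhodopsin to leave the endoplasmic reticulum. None of the 4 lists held a summit in ninaA or within 2 kb. The nearest IDR summit lay 7375 bp upstream of its TSS.

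Phospholipase C of the eye is encoded by norpA (FBgn0262738, X, 4322626 to 4365408, plus strand), whose loss leaves flies without a light response. It held the one strong site among these genes. The peak (X, 4324819 to 4325172) had a signal of 1031 and rank 93 of 30000, with rank 101 (signal 524.1) in replicate 1 and rank 108 (signal 490.8) in replicate 2. The 3 summit positions spanned 10 bp, though the pooled one comes from the same 2 replicates. The summit was intronic, 2368 bp after the first norpA TSS and 1385 bp after the second, between 5' UTR exons that end 1175 bp and begin 2722 bp after the first TSS. It ranked 9 of the 623 IDR peaks on X and 23 of the 1900 IDR peaks farther than 500 bp from any TSS. By its best pooled peak norpA stood at rank 201 of 13945 protein-coding genes, in the top 1.44%. The gene is 42783 bp long, and of the 407 protein-coding genes of at least that length 12 (2.95%, norpA included) had a peak ranked as high, a larger share than the 1.44% over all protein-coding genes.

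A second IDR peak lay in the same intron (X, 4324180 to 4324297), 1569 bp after the first TSS and 586 bp after the second. Its signal was 140.3 in the pooled list, and its rank was 3159, with 3206 in replicate 1 and 2988 in replicate 2. The stronger summit had 7.35 times the signal of this one. Both windows of 101 bp are shown on the plus strand because they are the only sites of the IDR list inside any of the 10 genes. Capitals again mark runs of at least 6 A or T.
norpA strong site, chrX:4324944-4325044: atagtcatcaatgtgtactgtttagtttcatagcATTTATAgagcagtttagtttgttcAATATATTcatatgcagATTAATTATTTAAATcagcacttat
norpA second site, chrX:4324145-4324245: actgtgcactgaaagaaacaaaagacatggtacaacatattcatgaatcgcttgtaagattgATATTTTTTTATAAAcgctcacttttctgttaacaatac

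The strong site had a GC content of 25.7% and 30 bases in A or T runs, and the second site 30.7% and 15 bases. The word TATAAA was present in both, as in 21.7% of IDR summit windows of the same length.

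**Figure D2:**
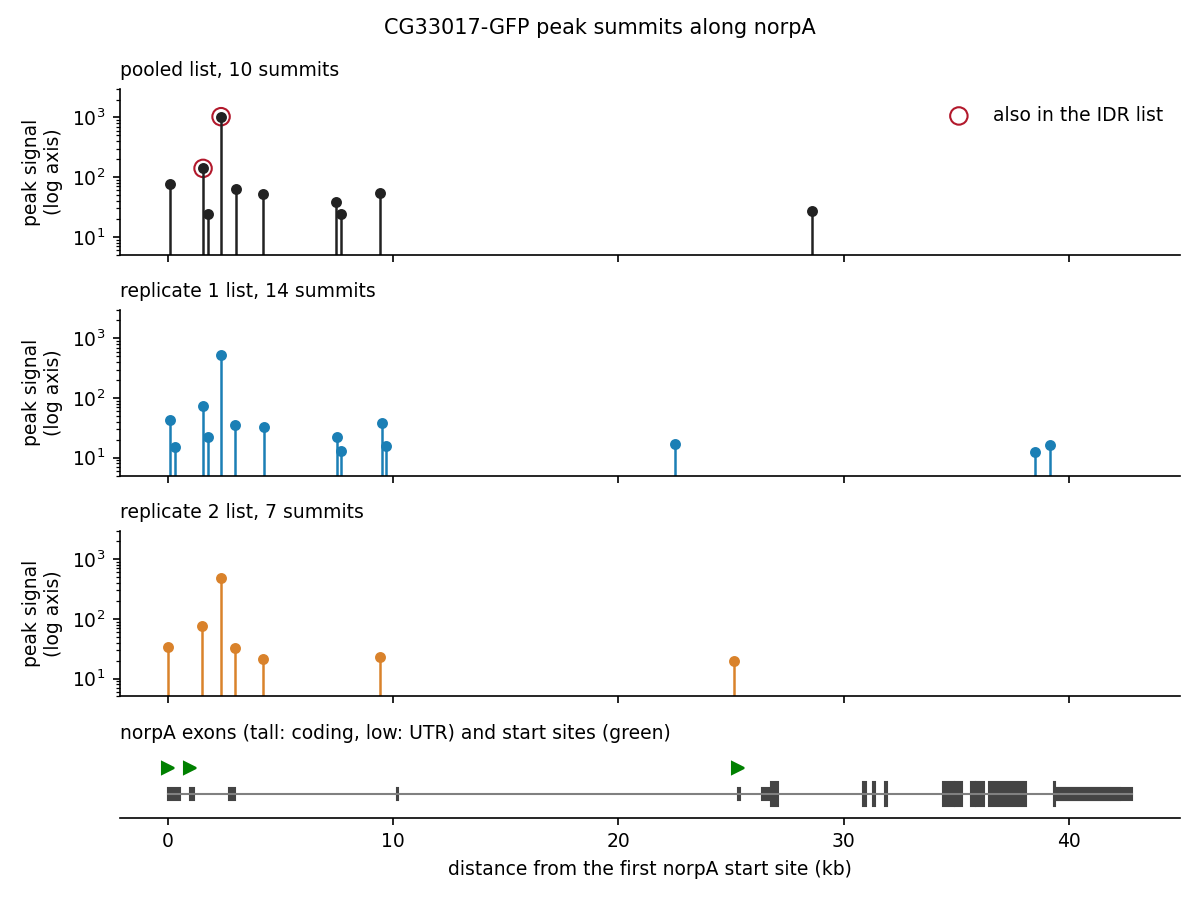
Signal of each norpA summit (log axis) against distance in kb from the first norpA start site, in the pooled, replicate 1 and replicate 2 lists, above the exons and the 3 start sites of the gene. Signals are on each list's own scale. In all 3 lists the summit at about 2.4 kb stands far above the others, and 9 of the 10 pooled summits lie in the first 10 kb.

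The other norpA summits were much weaker and mostly shared by the replicates near the 5' end. Of 10 pooled summits, 9 lay within 10 kb of the first TSS. For those at ranks 12243, 16814, 28099 and 11334 the nearest TSS was that of CG12693, which starts inside norpA. The summit at rank 16814 lay at -653 bp from it. The promoter summit itself, at 112 bp after the first TSS in the 5' UTR, had a signal of 77.95 and rank 7260, with rank 7363 in replicate 1 and 9739 in replicate 2. It lay outside the IDR list. Replicate 1 listed 14 norpA summits and replicate 2 listed 7. A summit at -156 bp from the third TSS was in replicate 2 alone (rank 20475), and 3 summits beyond 20 kb were in replicate 1 alone, at ranks 19603, 24906 and 19700. Per 10 kb norpA held 2.14 pooled summits, close to 2.24 over the main arms. Among genes at least as long, the median was 1.56 per 10 kb.

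The genes for the TRP and TRPL channels had weak and partly discordant peaks. The gene trp (FBgn0003861, 3R, 29914521 to 29920289, minus strand), which encodes the founding TRP channel, had 1 pooled summit at -1618 bp, with a signal of 28.5 and rank 23518. Its nearest TSS, at -309 bp, was that of Jon99Ciii, a gene of the serine protease family, and was matched in replicate 2 (rank 15191) but not in replicate 1. Replicate 1 had its own trp summit at -504 bp, at signal 10.42 and rank 28988, which no other list shared. The 2 replicates therefore had no trp peak in common.

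The second channel gene, trpl (FBgn0005614, 2R, 9753697 to 9765518, plus strand), had 2 promoter-proximal pooled summits, at -27 bp (signal 31.64, rank 20940) and -247 bp (signal 33.36, rank 19638). Both replicates had a peak there, at -32 bp in replicate 1 (rank 19975) and at -210 bp in replicate 2 (rank 27638). Another pooled summit, inside the gene at 2693 bp (signal 32.61, rank 20210), lay in the 3' UTR of CG1690, a gene nested in trpl on the other strand, and ranked 21729 in replicate 1 and 13206 in replicate 2. All were in the weaker part of each list except the last one in replicate 2.

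The scaffold gene inaD (FBgn0001263, 2R, 22855688 to 22858794, minus strand), whose PDZ-domain protein assembles the signalling complex, had the promoter summit of highest signal after that of norpA. It lay at -140 bp with a signal of 69.11 and rank 8511. The replicates differed in how high it stood, with rank 16129 in replicate 1 (signal 20.59) and 6188 in replicate 2 (signal 46.93). The IDR peak beside inaD (2R, 22854149 to 22854552, signal 171.2, rank 2316) lay beyond the 3' end of inaD and 32 bp upstream of RpL23, a cytoplasmic ribosomal protein gene that points the other way. Its rank was 3010 in replicate 1 and 1810 in replicate 2. This summit was 4443 bp from the inaD TSS, so it was near inaD only by the 2 kb rule.

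The eye-specific protein kinase C gene inaC (FBgn0004784, 2R, 16898535 to 16901575, plus strand) was flanked by weak peaks on both sides. The highest pooled summit, at -1660 bp, had a signal of 52.97 and rank 11804, with rank 14688 in replicate 1 and 11801 in replicate 2. Its nearest TSS was that of CG8910, at -1223 bp. A summit 3161 bp after the TSS, just past the 3' end, had rank 13299 and was matched in replicate 1 (rank 10983) but not in replicate 2. A promoter-proximal summit at -302 bp was listed in replicate 2 alone (rank 26092).

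The gene ninaC (FBgn0002938, 2L, 7377702 to 7384344, plus strand), which encodes a kinase fused to an unconventional myosin, had no peak near either TSS in any list. It had 2 pooled summits inside the gene, at ranks 20699 and 29465. The first lay in the 3' UTR of the shorter transcripts and was matched in replicate 2 (rank 26017). The second lay in coding sequence and was matched in neither replicate.

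The arrestin genes, whose products bind activated rhodopsin, were nearly free of peaks. In Arr1 (FBgn0000120, 2L, 18078269 to 18081307, plus strand) there was 1 pooled summit (signal 36.79, rank 17645), in the 3' UTR of the longest transcript. Its nearest TSS, at -512 bp, was that of ninaD, the scavenger receptor gene that follows Arr1. The peak was in replicate 1 (rank 10180) and not in replicate 2. Arr2 (FBgn0000121, 3L, 8647261 to 8648936, minus strand), which codes for the major arrestin, had none in any of the 4 lists, and its nearest IDR summit was 24828 bp from its TSS.

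**Figure D3:**
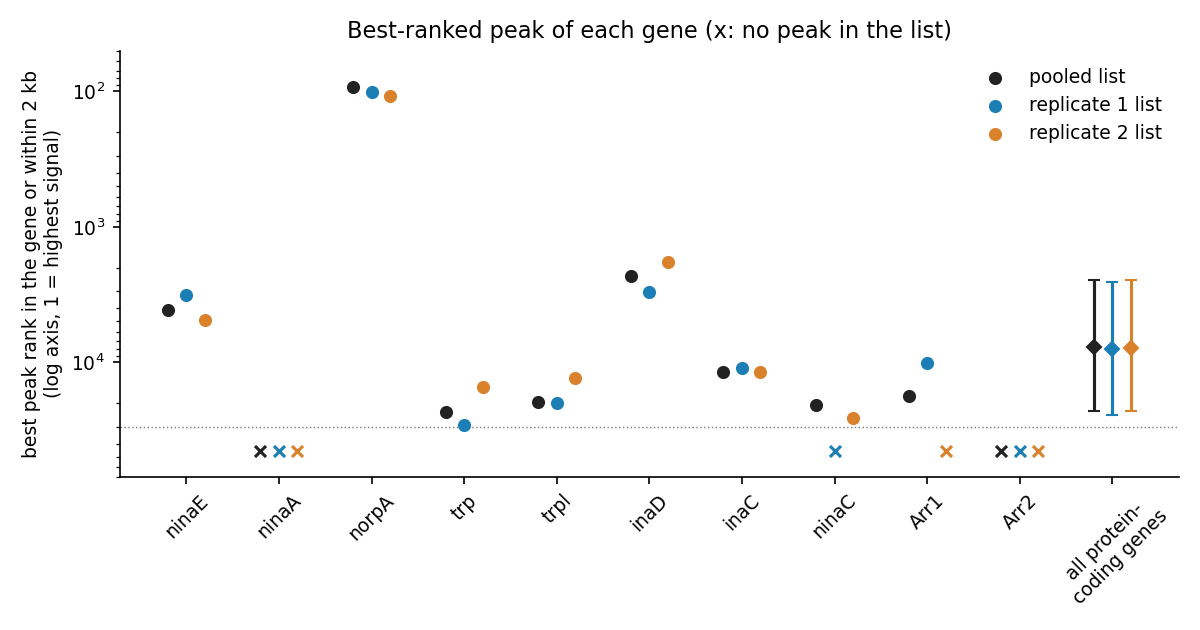
Best peak rank in the gene or within 2 kb (log axis, rank 1 at the top) for each of the 10 genes in the pooled, replicate 1 and replicate 2 lists. Crosses mark genes with no peak in a list, the dotted line marks the end of the lists at rank 30000, and diamonds with bars give the median and quartiles over all protein-coding genes. The norpA points, at ranks 93, 101 and 108, stand apart from the other 9 genes.

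Set beside all protein-coding genes, most of the 10 stood below the median by best pooled rank. With genes lacking a peak placed last, the median best pooled rank was 18642 for the 10 genes and 7669 for all protein-coding genes, whose quartiles were 2466 and 22975. The genes norpA and inaD were above the upper quartile, and inaD only through the RpL23 peak, while trp, ninaA and Arr2 were below the lower one. The genes ninaE, inaC, Arr1, trpl and ninaC lay between the quartiles. In replicate 2 trp did too, at rank 15191 between 2457 and 23053. The median distance from a TSS to the nearest IDR summit was 10897 bp for the 10 genes and 5952 bp for all. Peak density did not set them apart, with 2.07 pooled summits per 10 kb of gene and 2 kb flanks against 2.24 over the main arms, and 0.331 IDR summits against 0.364.

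The 25 pooled summits of these genes comprised 10 intronic and 10 intergenic summits, 3 in 3' UTRs, 1 in a 5' UTR and 1 in coding sequence. All intronic summits lay in norpA, except that at rank 23976, which lay outside inaD and 168 bp after the RpL23 TSS. No class shares over all pooled summits were set beside these counts. For 12 of the 25 the nearest TSS was that of another gene, a count with no share over other genes to set beside it. The median distance to the nearest TSS of any gene was 929 bp, close to 939 bp over all pooled summits, and the median to the gene's own nearest TSS was 2035 bp. Both replicates had an overlapping peak at 16 of the 25 (64.0%), close to 66.9% of all pooled peaks, while 4 were matched in replicate 1 only, 3 in replicate 2 only and 2 in neither.

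GC content in the 101 bp around these 25 summits had a median of 36.6% and ranged from 18.8 to 54.5%, against a median of 39.6% over all pooled summits. In the replicate lists the medians at these genes were 36.1% and 40.1%, a mean of 38.1% ± 2.8 (SD, n = 2). They lay on either side of the value over all pooled summits, which is of another list. No median over all summits of each replicate list was set beside them. At the 4 summits of the IDR list near these genes the median was 29.2%, against 34.7% over all IDR summits.

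Rhodopsin promoters are known for sites resembling P3, a homeodomain dimer site, here searched as TAAT and ATTA separated by 3 bases. From 250 bp before to 50 bp after the canonical TSS, P3 was found at 3 of the 10 genes (trp, trpl and ninaC), against 2.97% of all protein-coding promoters of that length. Only exact matches were counted. The ninaE upstream stretch shown above holds taattgaattt, which differs from the ninaC match TAATTGAATTA only in its last base. CACGTG, an E-box, was at 2 of 10 (trp and ninaC; 4.26% of promoters), and TATAAA at 5 of 10 (ninaE, trpl, inaC, ninaC and Arr1; 45.3%). CATCNCTA, core promoter motif 7, and GAGAG were at norpA alone (6.32% and 30.2%). TAATCC, TATCGATA and GGTCACAC were at 0 of 10 (8.71, 8.94 and 7.54% of promoters). Both strands were searched, and a match of letters is not a site. The 150 bp upstream of trp and ninaC are shown because they hold P3 and no list had a summit in them. Capitals mark P3 and CACGTG.
trp upstream of the TSS, chr3R:29920290-29920439, minus strand: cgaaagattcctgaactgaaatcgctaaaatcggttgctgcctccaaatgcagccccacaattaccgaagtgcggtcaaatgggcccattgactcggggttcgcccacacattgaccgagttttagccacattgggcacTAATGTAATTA
ninaC upstream of the TSS, chr2L:7377552-7377701, plus strand: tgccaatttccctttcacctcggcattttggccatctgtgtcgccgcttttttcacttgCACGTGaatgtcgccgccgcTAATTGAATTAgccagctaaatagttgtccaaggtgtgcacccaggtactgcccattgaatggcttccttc

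Over all 414 protein-coding promoters with P3, 31.6% had a promoter-proximal IDR summit and 66.9% a pooled one, against 23.8% and 61.3% of all protein-coding genes. At trpl the P3 letters stood 68 to 58 bp upstream of the TSS, within the 101 bp window of its summit at -27 bp.

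Beyond the 10 genes, 54 further genes of the pathway and of photoreceptors were counted in 5 lists. Of these, 13 had a promoter-proximal IDR summit (24.1%), near the 23.8% of all protein-coding genes. The 4867 highest peaks of each replicate gave 13 ± 1.41 (SD, n = 2). In the pooled list 36 had one (66.7%), near the 61.3% of all protein-coding genes. The lists differed among themselves, which was not tested.

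The 22 genes of the G protein and lipid cascade held 8 with a promoter-proximal IDR summit (36.4%) and 19 with a pooled one (86.4%), beside 23.8% and 61.3% of all protein-coding genes. The highest was Cds, which encodes the CDP-diacylglycerol synthase of phosphoinositide resynthesis, with a summit at -105 bp (signal 665.2, rank 236). In replicate 2 its summit lay at -131 bp (rank 162), where Uba2 has the nearer TSS, at -105 bp. Cds was followed by the rhodopsin phosphatase gene rdgC at -363 bp (signal 522.3, rank 352), whose rank was 362 in each replicate. The phosphatidylinositol transfer protein gene rdgB had a summit at -238 bp (signal 201.0, rank 1787). Of the 3 genes for subunits of the eye G protein, Ggamma30A had none, while Galphaq had one at -144 bp (signal 200.2, rank 1805), a TSS position shared with CG45086, and Gbeta76C had one at -230 bp (signal 149.9, rank 2840), where CG8765 has the nearer TSS. The calmodulin gene Cam (signal 181.4, rank 2111, with a noncoding RNA gene starting nearer), stops (signal 113.1, rank 4375) and the phospholipase D gene Pld (signal 105.8, rank 4818) completed the 8.

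Of the 6 other rhodopsin genes, 0 had a promoter-proximal IDR summit, against 23.8% of all protein-coding genes, so that lacking one is the common state. In the pooled list 1 of 6, Rh5, had one, at -86 bp and rank 23927, against 61.3% of all protein-coding genes. Within 2 kb, 2 of the 6 (Rh4 and Rh5) had an IDR summit, against 39.1% of all protein-coding genes. Near Rh5 lay a strong intergenic IDR peak (2L, 12011107 to 12011433, signal 625.4, rank 270), 2898 bp after the Rh5 TSS. It was named after its value was seen. The nearest TSS, at -2252 bp, was that of a long noncoding RNA gene, lncRNA:CR44588. The Rh5 peak ranked 256 in replicate 1 and 284 in replicate 2. A higher IDR peak lay within 2 kb of a gene of the G protein and lipid cascade, Gprk2 (signal 1485.0, rank 41). There PNPase has the nearer TSS, and this peak too was named after its value was seen.

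Among 8 genes of chromophore supply and rhodopsin maturation 2 had a promoter-proximal IDR summit. Those with an IDR summit were the chaperone gene Cnx99A at -81 bp (signal 236.0, rank 1361) and the oxidoreductase gene ninaG at -285 bp (signal 261.1, rank 1146). At ninaG, Sptz has the nearer TSS. Genes with a pooled summit only included the retinoid-binding protein gene pinta (rank 7321) and Xport-A with Xport-B, which share a peak (rank 17236).

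Of 9 genes for photoreceptor structure and transcription factors, 1 had a promoter-proximal IDR summit (11.1%) and 6 a pooled one (66.7%). The shares over all protein-coding genes were 23.8% and 61.3%. The IDR summit was that of crb, an apical polarity gene, at -155 bp (signal 126.1, rank 3712). The transcription factor genes so (rank 7836), oc (rank 9209) and Pph13 (rank 15986, with the nearer TSS that of Ptth) had pooled summits. Of 9 genes for neurotransmission and pigment transport 2 had a promoter-proximal IDR summit (22.2%), near the 23.8%, and 4 a pooled one (44.4%), against 61.3%. Those with an IDR summit were the histamine channel gene HisCl1 at -238 bp (signal 200.2, rank 1804) and the pigment transporter gene st at -229 bp (signal 110.9, rank 4491). At HisCl1, prd1 has the nearer TSS. The gene t (tan), for the hydrolase that recycles the transmitter histamine, had a pooled summit at -36 bp (rank 10846), and w (white), a pigment transporter gene, one at 94 bp (rank 22912).

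**Figure D4:**
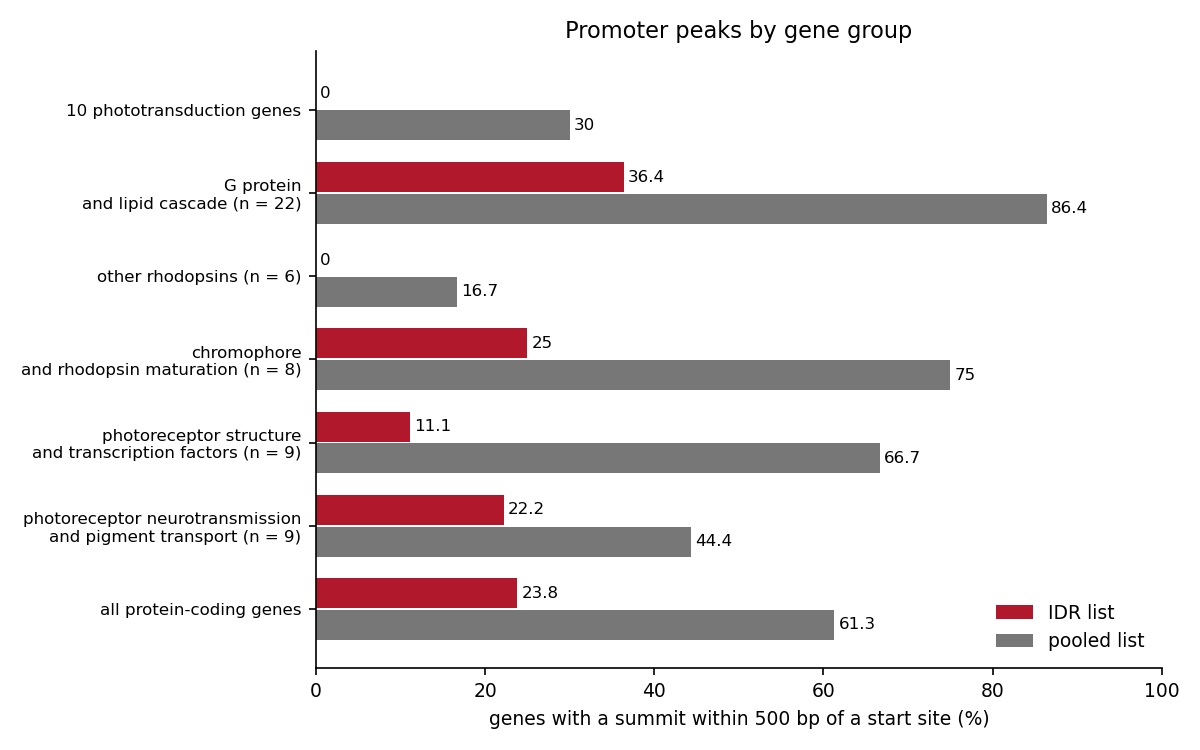
Percent of genes with a summit within 500 bp of a start site, in the IDR list and the pooled list, for the 10 phototransduction genes, the 5 lists of further genes and all protein-coding genes. The 10 genes and the other rhodopsins are at 0% in the IDR list, and the G protein and lipid cascade is at 36.4%, beside 23.8% of all protein-coding genes.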

How the data were processed

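Peaks were called by the authors on dm6 for each replicate and for the pooled replicates, against 1 control alignment, and the IDR list was derived from these 3 lists, per the text deposited with the samples. Which programs aligned reads and called peaks, and at what IDR cutoff, is not given in the sources used here. The antibody label names CG33017, while the description names an antibody against GFP. The deposited signal of each peak was used to rank peaks within a list, and the deposited q-value, as −log10, was not used. The scale of the signal is not stated.

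Genes and start sites came from Ensembl release 115 for BDGP6, without transposable elements, on arms 2L, 2R, 3L, 3R, 4 and X. Sequence came from the NCBI Release 6 genome, and no peak or gene ended past its arm ends. The summit was the start plus the deposited offset, written 1-based. Of 54 symbols in the lists of further genes, all matched, some through RefSeq synonyms. Peaks matched between lists where they overlapped by at least 1 bp. No test was run, since 1 group of 2 replicates allows no comparison. Values for both replicates are given as the error, and nothing in the sources says whether they came from separate cohorts of flies beyond their label as biological replicates. Placement was tested on simulated data. The members, the lists and the naming rule were chosen with earlier results of these data known. The rule named all 10 genes, the gene nearest to each of their IDR or best pooled peaks, every further gene with a promoter-proximal IDR summit and up to 4 per list with the highest pooled one. Neighbours with a nearer TSS are named for context. Python 3.11.15, pandas 2.3.3 and NumPy 2.4.6 were used.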

Additional observations from a re-analysis of the deposited data

How the results depend on the processing

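No promoter-proximal IDR summit was found at the 10 genes with interval midpoints or without either replicate (0 to 0). Of all pooled summits 93.9% were already interval midpoints, as were 23 of the 25 at these genes. The count was also 0 at 250 bp, with canonical or nearest TSSs only and with only the stronger IDR peaks. Those settings can only lower a count, so they could not change it from 0. At 1000 bp the count was 1, through the second norpA site. The count with an IDR summit within 2 kb, 3, was 1 for gene bodies only and for 1 kb, and 1 when a summit counted for its nearest TSS only, an alternative chosen after seeing the data. All 3 settings kept norpA. It was 3 at 5 kb and with midpoints, 2 with only the stronger IDR peaks and 2 to 3 without a replicate. The median best rank of 18642 was 14199 to 15479 without a replicate and 30001, past the end of the list, for promoter-proximal summits alone. The 13 further genes became 11 to 17. GC content over 100 bp each side was 37.8%. No paired analysis was possible because there is 1 group. Read depth limits all counts and is unknown here.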
